A study of Rattus norvegicus with 6 samples.

Results

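The genes described here encode the machinery that copies DNA and the regulators that start S phase, measured in rat GH4C1 cells that carried the mutant pituitary factor POU1F1(R271W) or a control vector. The list held 46 genes. They were listed by name for their roles in replication. This choice of genes used no measured value, but the list was drawn up with earlier results of these data known. Each gene was read from probe sets annotated to its symbol alone, and the probe set with the highest mean log2 signal stood for the gene. This gave 43 measured members, among 14217 genes with such a probe set on the array. Cdc6 and Gins2 had no probe set under that rule, the Rrm2 probe sets also carried a second symbol, and these 3 genes were not analysed.

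GH4C1 is a rat pituitary tumour line that secretes prolactin and growth hormone. Of 6 cultures, 3 were transduced with a lentiviral vector in which the PGK promoter drives POU1F1(R271W) together with an EGFP reporter, and 3 were controls, for which the design names a PGK vector with EGFP alone. Both groups were given virus, at an MOI (infectious particles added per cell) of 5, and cells were harvested after 4 days in regular medium. Each culture was read on 1 Affymetrix array. The replicates are labelled as biological, but how the cultures were kept apart is not stated. The p-values therefore rest on the spread between these 6 arrays, with each variance drawn toward that of probe sets of like signal. All cells of a culture were profiled together, so a smaller share of cells in S phase and less RNA per such cell cannot be told apart, and the share of cells that took up a vector is not given in the sources used here.

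Eukaryotic DNA replication starts from sites bound by the origin recognition complex, where Cdc6 and Cdt1 load the MCM helicase in G1. At the G1/S boundary cyclin E kinase activity and E2F transcription factors promote helicase activation and expression of replication genes, after which primase, the replicative polymerases and the PCNA clamp copy the strands. Many of these genes are known E2F targets, and their transcripts usually peak around S phase in cycling cells.

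The arrays were checked before the members were read. Gh1, Prl and Pou1f1, the defining somatolactotroph genes, had group mean signals of 6338, 3175 and 1836 in R271W cells and 6443, 4332 and 2301 in controls. By limma, Prl (log2 change -0.45, adjusted p = 0.00048) and Pou1f1 (-0.33, adjusted p = 0.00486) were lower in R271W cells. Neither overlapped between the groups, and Gh1 did not pass. Whether the Pou1f1 probe set also reads the R271W transgene is not given in the sources used here, so it does not check the labels. The 12 markers of other pituitary, leukocyte, endothelial and stromal cells had group mean signals of 2.33 to 29.3 in R271W cells and 1.24 to 28.4 in controls, and 0 of the 3 that reached the signal filter passed the test. Below the filter, the stromal marker Pdgfra read 2.56, 4.88 and 3.13 in R271W cells against 15.2, 11.2 and 12.8 in controls, without overlap, and was not tested. The arrays of the other markers in this list overlapped. Median signals were 25.5 to 26.9 on the R271W arrays and 22.4 to 22.9 on the control arrays. The spiked-in hybridisation controls were 0.23 log2 units higher in the R271W group. The signal of the 3' actin probe set over the 5' one, a measure of RNA integrity, was 1.86 to 2.06 in R271W cells and 1.81 to 1.82 in controls, while that of GAPDH overlapped. These array differences move with the groups, and their part in the results on single genes was not tested.

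Replication genes moved in both directions by small amounts. Of the 43 measured members, Prim2, Slbp and Rfc3 were higher in R271W cells and Ccne2, Mcm6, Pold2 and Mcm4 were lower, by limma at an adjusted p under 0.05, and 36 did not pass. The 7 calls are 16.3% of the members. Over all genes 18.9% were called, with 9.87% higher and 8.98% lower, so the share of members called lay near the background. The log2 changes of the members ran from -0.61 for Ccne2 to 0.82 for Slbp, and 0 of the called members changed by 2-fold. Their median was -0.02, beside 0.06 over all genes, and 21 members read above 0 and 22 below. The 3 R271W arrays were all above the 3 controls in 8 members and all below them in 6, which is 32.6% of the members, against 37.7% of all genes (21.2% above and 16.6% below). Of the 15 members with a mean signal of at least 200, 4 passed (26.7%, against 30.9% of all genes that bright). An unadjusted p under 0.05 was reached by 13 members, or 30.2%, against 33.4% of all genes.

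**Figure D1:**
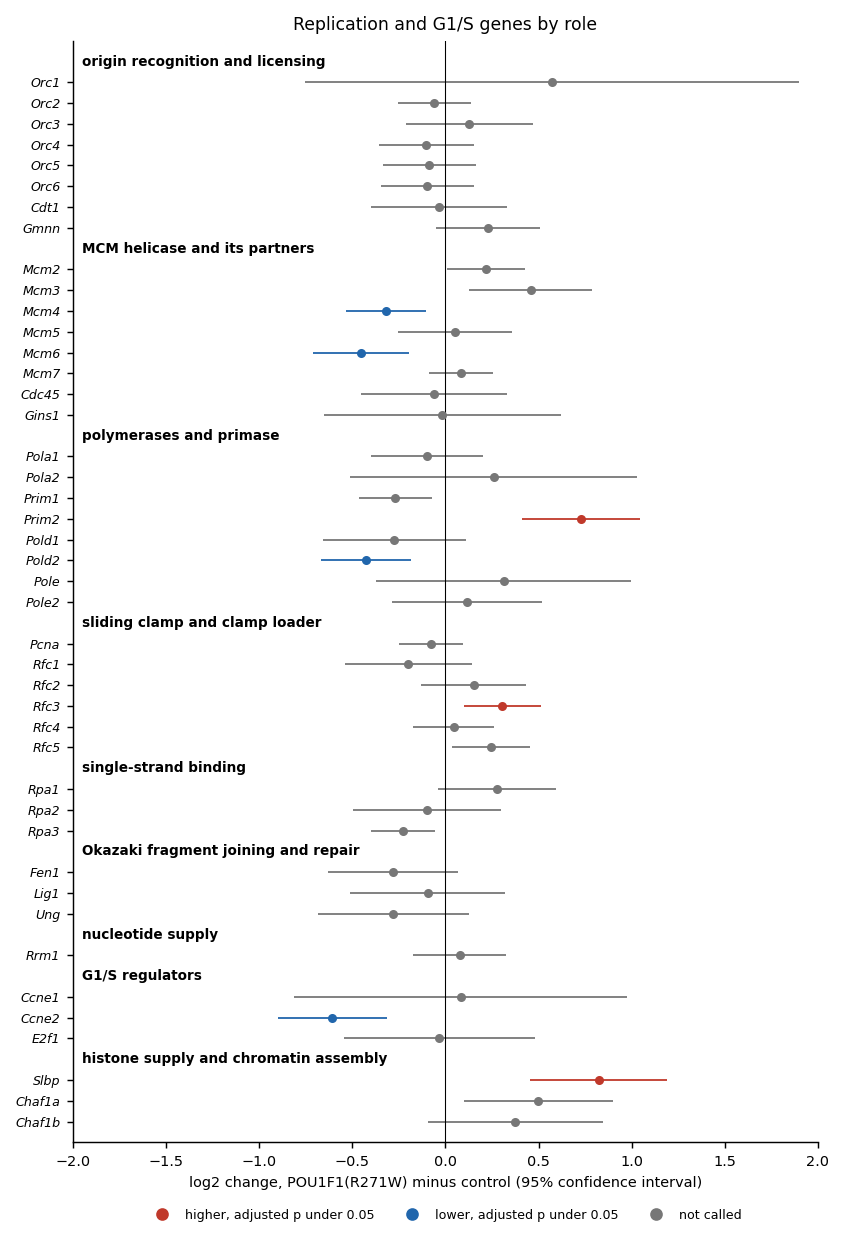
Log2 change of each measured member (POU1F1(R271W) minus control, brightest probe set) with its 95% confidence interval from limma, grouped by role; n = 3 arrays per group. Coloured points passed an adjusted p of 0.05. The 3 members that were higher and the 4 that were lower are spread over 5 of the 9 roles, and among the 36 that did not pass, the intervals of Orc1 and Pola2 reach beyond 1.

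The arrays bounded most of the other changes. Among the 36 members that did not pass, the 95% interval of the log2 change lay within 0.5 of 0 on either side for 19 and within 1 for 34. Those 2 exceptions were Orc1 and Pola2. A missed threshold does not show that these genes were expressed alike in both groups. The 7 calls also rest on the intensity trend in the variance model: with eBayes fitted without it, 0 of the 43 members passed and 8 had an unadjusted p under 0.05, while calls over all probe sets numbered 1065 instead of 2940.

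**Figure D2:**
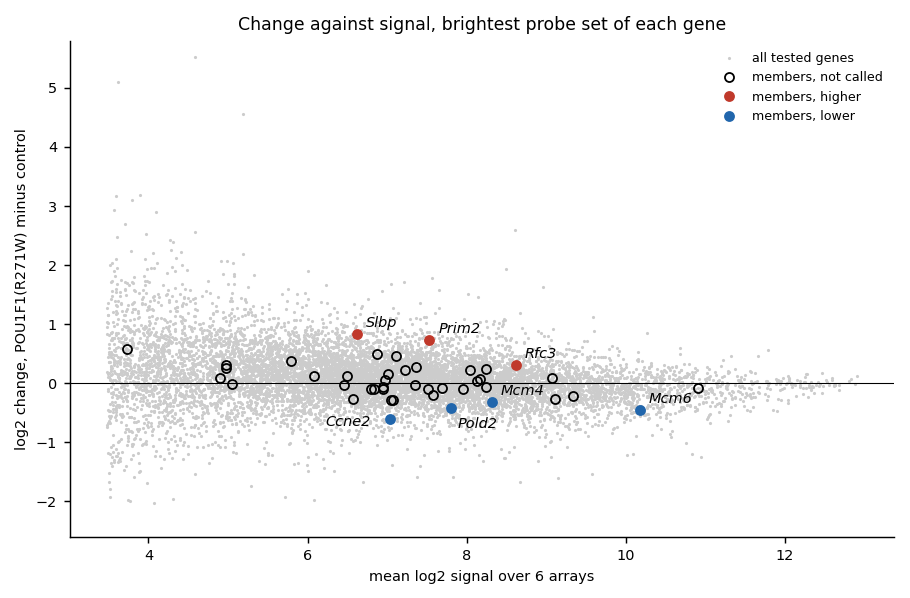
Log2 change (POU1F1(R271W) minus control) against mean log2 signal over 6 arrays, for the brightest probe set of each tested gene in grey and for the members as circles, filled where they passed. The members lie within the cloud of all genes, and the called ones lie at mean signals from dim (Slbp) to bright (Mcm6).

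Origins are marked by the origin recognition complex and licensed by Cdt1, whose inhibitor is geminin. None of the 8 measured genes of origin recognition and licensing passed the limma test, and 0 of the 8 had an unadjusted p under 0.05. Orc1, the large ATPase subunit, had the widest reading in the group, with signals of 27.5, 12.1 and 12.8 on the R271W arrays against 12.4, 5.77 and 18.2 on the control arrays. These arrays overlapped (log2 change 0.57, 95% interval -0.76 to 1.90, adjusted p = 0.591), and Orc1 was the dimmest measured member. The other 5 Orc genes read between -0.10 for Orc4 and 0.13 for Orc3, all with arrays that overlapped. Cdt1, the loading factor, had signals of 118, 201 and 177 in R271W cells against 165, 155 and 177 in controls (log2 change -0.03, interval -0.40 to 0.33). Gmnn, which encodes geminin, had signals of 149.9, 153 and 185 in R271W cells against 129.9, 139.7 and 145 in controls. All R271W arrays of Gmnn lay above the controls, but the change of 0.23 (interval -0.05 to 0.51) did not pass (adjusted p = 0.266). A dim second Gmnn probe set, at mean signals of 17.6 in R271W cells and 4.47 in controls, lay below the signal filter and was not tested.

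The MCM helicase is a ring of 6 different subunits, and its genes read in both directions. No test compared the subunit genes with each other. Mcm6 had signals of 1219, 999 and 799.9 in R271W cells against 1248, 1419 and 1411 in controls. The groups of Mcm6 did not overlap, although R271W replicate 1 lay close to control replicate 1. Its log2 change was -0.45 (SE 0.12, adjusted p = 0.0207). Mcm4 had signals of 255, 294 and 312 in R271W cells against 356, 356 and 359 in controls. The controls were nearly equal and all R271W arrays were lower, with a log2 change of -0.32 (SE 0.10, adjusted p = 0.0444). The adjusted p of Mcm6 was 0.1 under quantile normalization and 0.181 without the intensity trend. It was 0.0534 without R271W replicate 2, 0.0731 without control replicate 2 and 0.0762 without control replicate 3. The adjusted p of Mcm4 was 0.0568 without the signal filter, 0.151 without the intensity trend and 0.0694 with the replicate number as a block. It was 0.145 and 0.0842 without R271W replicates 1 and 2. Without control replicates 1, 2 and 3 it was 0.105, 0.106 and 0.113.

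The remaining subunit genes did not pass. Mcm3 had signals of 153, 173 and 160.1 in R271W cells against 109.96, 100.1 and 149 in controls, the largest log2 change in size of the helicase group (0.46, adjusted p = 0.0597). All R271W arrays of Mcm3 lay above the controls, narrowly in the case of control replicate 3, without which the adjusted p was 0.0168 and the change 0.63. Mcm2 had signals of 291, 275 and 289 in R271W cells against 233, 262 and 242 in controls, also without overlap (log2 change 0.22, adjusted p = 0.155). Mcm5 and Mcm7 read 0.05 and 0.08, with arrays that overlapped, and under other processing they read as low as -0.15 and -0.11. Cdc45 and Gins1, partners of the ring in the active helicase, read -0.06 and -0.02 (adjusted p = 0.859 and 0.978). The other tested probe sets of Cdc45 read 0.14 and -0.17 without passing.

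A ratio taken within an array does not depend on a factor that multiplies the whole array, though quantile normalization can still move it. Relative to the mean of Mcm2, Mcm3, Mcm5 and Mcm7 on the same array, and set to 0 at the control mean, Mcm6 read -0.34, -0.71 and -0.92 on the R271W arrays against -0.06, 0.13 and -0.06 on the control arrays in log2 units. Mcm4 read -0.67, -0.54 and -0.35 on the R271W arrays against 0.05, 0.06 and -0.11 on the control arrays. All R271W arrays lay below the controls in both ratios, by 0.66 ± 0.30 for Mcm6 and 0.52 ± 0.16 for Mcm4 on average (SD over 3 R271W arrays). Under quantile normalization, an alternative chosen for these ratios after seeing the data, they were -0.51 for Mcm6 and -0.51 for Mcm4, again without overlap. These are 2 of 7 such ratios of a called member to its partner genes. The groups did not overlap in 3 of the 7, the third being Prim2 to Prim1, and overlapped in 4. Those 4 were Pold2 to Pold1 (-0.15), Rfc3 to the mean of the other Rfc genes (0.24), Slbp to the mean of Chaf1a and Chaf1b (0.39) and Ccne2 to Ccne1 (-0.69). All 7 were formed after the values had been seen and are given as a description, without a test. Each starts from a called member, so a gap between the groups in part repeats that call. How often ratios of other genes show such a gap was not computed. The Mcm reference included Mcm2 and Mcm3, whose R271W arrays all lay above the controls. The log2 changes of Mcm6 and Mcm4 by themselves were smaller in size, at -0.45 and -0.32.

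Most promoters of the helicase group in the RefSeq table held a sequence feature, a match to the E2F core, the exception being that of Gins2, a partner gene that was not measured. The E2F core was searched as TTTCGCG, as its variant TTTGGCG and as its variant TTTCCCG, on both strands, from 250 bases before to 50 after the annotated start (RefSeq, GRCr8). The table held promoters for 38 of the 46 genes, and 23 of these, or 60.5%, had a match, beside 6.94% of 19005 protein-coding promoters. The genes were chosen by role and many such genes are known E2F targets, so this share is not independent of the choice. The protein-coding promoters were not matched to the members for base content. Matches on opposite strands can overlap, as they do in Mcm2, Mcm5, Mcm6 and Gins1. The windows that follow show such matches in capitals, 5′ to 3′ on the strand of the gene.
Mcm2 (chr4:122918095-122918139, minus strand): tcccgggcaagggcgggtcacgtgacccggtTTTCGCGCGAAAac
Mcm5 (chr19:13488580-13488624, plus strand): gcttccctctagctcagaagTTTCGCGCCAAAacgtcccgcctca
Mcm7 (chr12:22163206-22163250, minus strand): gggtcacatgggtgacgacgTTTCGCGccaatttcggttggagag
Cdc45 (chr11:95690099-95690143, plus strand): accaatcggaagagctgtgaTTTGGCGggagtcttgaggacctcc
Gins1 (chr3:160184875-160184919, plus strand): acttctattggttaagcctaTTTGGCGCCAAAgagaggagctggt
Mcm4 had no entry in the table. For Mcm6, the brightest of the members that were lower, the 250 bases before the start are shown whole because the match lies further from the start than in Mcm2.
Mcm6 (chr13:42404353-42404602, minus strand): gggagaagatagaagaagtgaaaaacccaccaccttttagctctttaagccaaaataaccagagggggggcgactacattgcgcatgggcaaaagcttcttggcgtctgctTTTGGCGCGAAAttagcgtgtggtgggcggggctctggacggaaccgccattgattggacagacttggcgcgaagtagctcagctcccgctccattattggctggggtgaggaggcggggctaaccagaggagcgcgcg
The pair of overlapping matches in Mcm6 begins 139 bases before the start. Mcm2, Mcm3, Mcm5 and Mcm7 carry the feature too and did not pass. No subunit promoter in the table lacked a match, so these genes cannot show whether a match goes with direction. Across the 37 measured members with a promoter, those with a match numbered 23, of which 2 were higher and 1 was lower (median log2 change 0.12). Of the 14 without a match, 1 was higher and 1 was lower (median -0.07). Mcm4 and Ccne2, both called lower, had no promoter in the table and are in neither group. A match to these letters is a description and does not show that E2F binds there.

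The other motifs were as follows. CCAAT, read on both strands, matched 57.9% of the member promoters and 38.4% of protein-coding promoters. TTTGAA, the letters of the cell cycle homology region, matched 10.5% of member promoters and 17.0% of protein-coding ones. TATNCAT, a core of POU1F1 sites, matched 2.63% of member promoters, which is that of Prim1, and 8.46% of protein-coding ones. Nothing about POU1F1 binding follows from a window without these letters.

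Primase makes the RNA primers that every new strand needs, and its subunit genes read in opposite directions. Prim2, the large regulatory subunit, had signals of 239.7, 217 and 257 in R271W cells against 142, 117 and 178 in controls. The groups did not overlap, and the log2 change was 0.73 (SE 0.15, adjusted p = 0.00432). Prim1, the catalytic subunit, had signals of 477, 469.99 and 564 in R271W cells against 635, 598 and 584 in controls. All R271W arrays of Prim1 lay below the controls, but the log2 change of -0.27 did not pass (SE 0.09, adjusted p = 0.0602). Prim1 passed when arrays were centred on the median (-0.47, adjusted p = 0.00367) or the 75th percentile (-0.35, 0.0253), with the stricter filter at the 60th percentile (0.0357), with array weights (0.0346) and without R271W replicate 3 (-0.35, 0.0129). The log2 ratio of Prim2 to Prim1 within an array, set to 0 at the control mean, was 1.08, 0.96 and 0.94 on the R271W arrays against -0.09, -0.28 and 0.36 on the control arrays. Their arrays did not overlap in this ratio, which was higher by 1.00 in R271W cells, and by 0.89 under quantile normalization.

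The promoter of Prim2 is shown because it belongs to a member that was higher and held 0 matches to the E2F letters.
Prim2 (chr9:43400455-43400704, minus strand): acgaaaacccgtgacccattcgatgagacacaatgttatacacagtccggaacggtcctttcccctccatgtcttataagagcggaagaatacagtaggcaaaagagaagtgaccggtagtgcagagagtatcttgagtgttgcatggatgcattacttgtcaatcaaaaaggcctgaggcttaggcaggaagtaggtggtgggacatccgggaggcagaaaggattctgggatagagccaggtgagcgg
No capitals appear in it, since these letters are not in this window.

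The replicative polymerases mostly did not pass. Pold2, the second subunit of polymerase delta, had signals of 217, 183 and 179 in R271W cells against 273, 244 and 260.4 in controls. All R271W arrays lay below the controls, with a log2 change of -0.43 (SE 0.11, adjusted p = 0.0197). Pold1, the catalytic subunit of the same enzyme, had a log2 change of -0.28 with arrays that overlapped (adjusted p = 0.337), and the ratio of Pold2 to Pold1 also overlapped between the groups. The adjusted p of Pold2 was 0.0733 and 0.055 without R271W replicates 2 and 3, and 0.0769 and 0.0621 without control replicates 1 and 3. Pola1 and Pola2, subunits of the polymerase that starts each strand, read -0.10 and 0.26. Pole and Pole2 of polymerase epsilon read 0.31 and 0.12, each with arrays that overlapped.

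**Figure D3:**
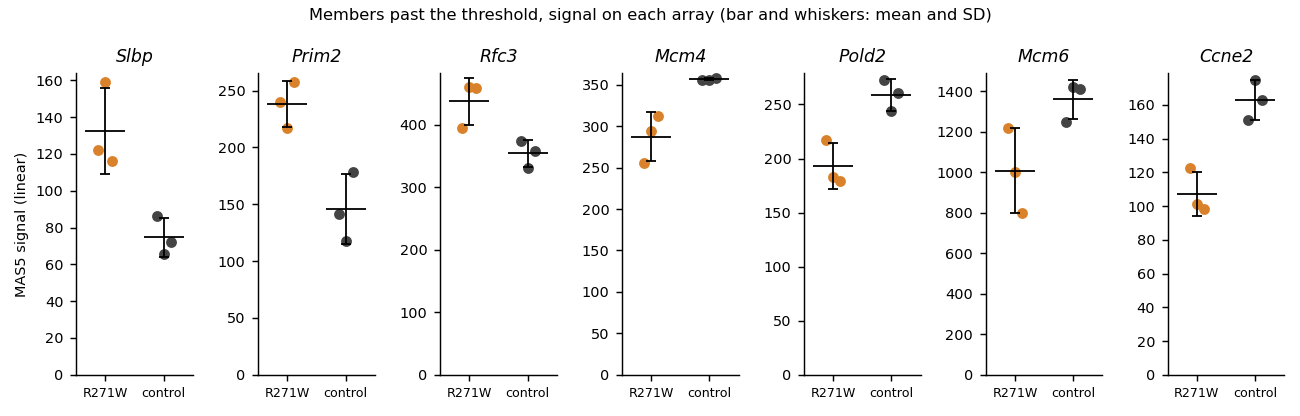
MAS5 signal of the 7 members that passed, on each R271W and control array (points, linear axes from 0), with the mean and SD of 3 arrays per group. Slbp, Prim2 and Rfc3 are higher on every R271W array and Mcm4, Pold2, Mcm6 and Ccne2 are lower, with narrow gaps in Rfc3 and Mcm6.

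Pcna, the sliding clamp and a common marker of cycling cells, had signals of 1847, 1735 and 2067 in R271W cells against 1866, 2129 and 1965 in controls. The groups overlapped, and the 95% interval of its log2 change ran from -0.25 to 0.09 (change -0.08, adjusted p = 0.562). Under median centring, which lowers every change, Pcna read -0.28 with an adjusted p of 0.0386. Its loader, replication factor C, has 5 subunit genes. Rfc3 had signals of 394, 460.1 and 458 in R271W cells against 373, 331 and 358 in controls, with no overlap but a small gap. Its log2 change was 0.30 (SE 0.10, adjusted p = 0.0462), the smallest of the 7 calls and the one that passed under the fewest alternatives. The adjusted p of Rfc3 was 0.536 under median centring (change 0.11), 0.158 under 75th percentile centring and 0.0598 without the filter. Leaving out R271W replicates 2 and 3 gave 0.152 and 0.108, and leaving out control replicates 1, 2 and 3 gave 0.0637, 0.161 and 0.0991.

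Rfc5 gave different calls on its probe sets. The brighter one had signals of 354, 299 and 338 in R271W cells against 283, 274 and 278 in controls, without overlap (log2 change 0.25, adjusted p = 0.108). The dimmer one averaged 239 ± 38.5 in R271W cells and 163 ± 17.6 in controls and passed (log2 change 0.55, adjusted p = 0.0146). Rfc1, the large subunit, read -0.20, Rfc2 0.15 and Rfc4 0.04, all with arrays that overlapped. R271W replicate 1 of Rfc1 stood at 240.1 beside 149.7 and 157 on the other R271W arrays, and without it the change was -0.42 (adjusted p = 0.0423). Its other tested probe sets read 0.09 and -0.37 without passing.

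Replication protein A coats single-stranded DNA, and 0 of its 3 subunit genes passed. Rpa1, the large subunit, had a log2 change of 0.28, with signals of 169, 217 and 163 in R271W cells against 146, 132 and 176 in controls that overlapped (adjusted p = 0.231). Rpa2 read -0.10. Rpa3, the small subunit, had signals of 628, 583 and 589 in R271W cells against 689, 746 and 673 in controls, all lower in R271W cells, with a log2 change of -0.23 that did not pass (adjusted p = 0.0698). It passed when arrays were centred on the median (-0.43, adjusted p = 0.00209) or the 75th percentile (-0.31, 0.0206), and with the stricter filter (0.0442).

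Genes for joining Okazaki fragments and for removing uracil from new DNA did not pass. Fen1, the flap endonuclease, had signals of 106, 123 and 141 in R271W cells against 156, 175 and 121 in controls, with overlap (log2 change -0.28, interval -0.63 to 0.07, adjusted p = 0.274). Lig1, the ligase of lagging strands, read -0.10, and Ung, the uracil glycosylase, read -0.28. Rrm1, the large subunit of ribonucleotide reductase, which makes deoxynucleotides, had signals of 261, 279 and 351 in R271W cells against 272, 295 and 272 in controls. Its arrays overlapped (log2 change 0.08, interval -0.17 to 0.33, adjusted p = 0.715).

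Among the G1/S regulators only Ccne2 passed. Ccne2, which encodes cyclin E2, an activator of CDK2 at S phase entry, had signals of 122, 101 and 98.2 in R271W cells against 151, 175 and 163 in controls. All R271W arrays lay below the controls, and the log2 change was -0.61 (SE 0.14, adjusted p = 0.00839). A dim second probe set of Ccne2, at mean signals of 15.6 in R271W cells and 15.0 in controls, read 0.23 without passing, and the mean over both was -0.19 (adjusted p = 0.728). Its partner gene Ccne1, for cyclin E1, was dim, with signals of 24.5, 64.4 and 18.2 in R271W cells against 32.1, 26.1 and 28.9 in controls. The R271W arrays of Ccne1 lay on both sides of the controls, and its interval of -0.81 to 0.98 allows changes of either sign (log2 change 0.08). E2f1, the transcription factor gene, had signals of 119, 67.8 and 80.7 in R271W cells against 113, 96.1 and 64.1 in controls. These overlapped, with a log2 change of -0.03 (interval -0.54 to 0.48).

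Replicated DNA has to be packed into new nucleosomes. Slbp encodes the stem-loop binding protein that processes and stabilises replication-dependent histone mRNAs. It had signals of 122, 159 and 116 in R271W cells against 86.2, 65.4 and 72.2 in controls. All R271W arrays lay above the controls, with the largest gap of the 7 calls, and the log2 change was 0.82 (SE 0.17, adjusted p = 0.005). By Affymetrix naming, the suffix of this Slbp probe set marks probes that more than 1 transcript may share, and both other Slbp probe sets lay below the signal filter. Chaf1a and Chaf1b, subunits of the chromatin assembly factor that deposits histones behind the fork, had log2 changes of 0.50 and 0.37 and did not pass (adjusted p = 0.088 and 0.281). Chaf1a had signals of 104, 138 and 188 in R271W cells against 100.3, 96.5 and 99.1 in controls. The R271W arrays of Chaf1a all lay above the controls but were widely spread, and without R271W replicate 1 the change was 0.71 (adjusted p = 0.0147). The promoter of Slbp, the member with the largest increase, is shown with its match in capitals.
Slbp (chr14:81295998-81296247, plus strand): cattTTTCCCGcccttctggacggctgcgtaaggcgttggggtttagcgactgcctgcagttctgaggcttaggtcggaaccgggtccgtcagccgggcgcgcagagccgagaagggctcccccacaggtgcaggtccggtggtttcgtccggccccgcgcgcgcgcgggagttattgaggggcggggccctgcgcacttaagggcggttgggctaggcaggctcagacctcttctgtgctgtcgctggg
The match lies 246 bases before the start, near the far end of the window.

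**Figure D4:**
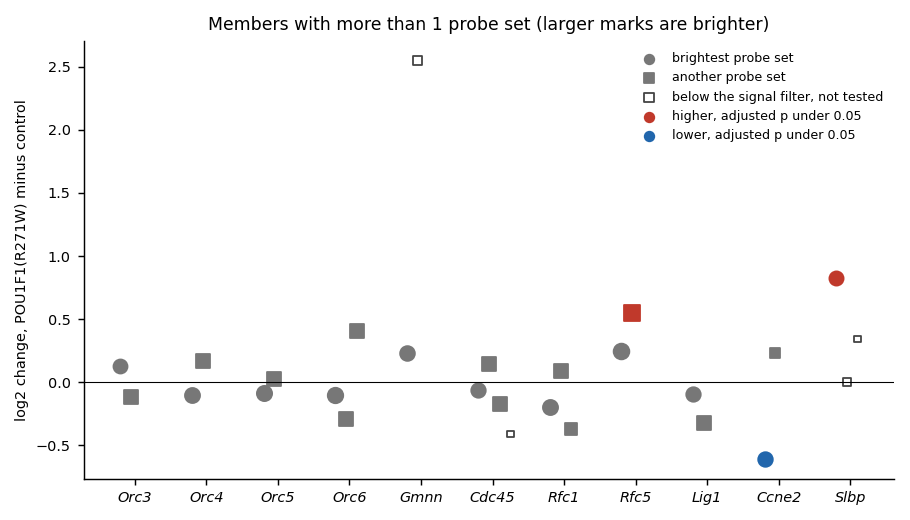
Log2 change (POU1F1(R271W) minus control) of every probe set of the 11 members that have more than 1, with the brightest as circles, others as squares, larger marks for brighter probe sets and open squares for those below the signal filter. In 7 of the 11 genes the probe sets lie on both sides of 0, Ccne2 among them.

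Probe sets of the same gene often disagreed in sign. The 43 members had 59 probe sets, of which 55 lay above the signal filter and 8 were called, 4 higher and 4 lower. Over all probe sets 8.57% were called higher and 7.22% lower (15.8% in all). Of 11 members with more than 1 probe set, 7 had probe sets on both sides of 0, the called Ccne2 (-0.61 and 0.23) among them. Orc6, for example, read -0.10, -0.29 and 0.41 on its probe sets, with 0 of them called. Mcm4, Mcm6, Prim2, Pold2 and Rfc3 each had 1 probe set, so their calls have no second reading on these arrays.

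Other genes of replication were counted in the same way. Of 61 listed genes outside the 46, 50 were measured and 48 tested, of which 3 were higher and 1 was lower (8.33%, against 18.9% of all genes). These genes were dimmer, with a median signal of 87.8 against 120 over all genes, and bright genes were called more often. An unadjusted p under 0.05 was reached by 27.1%, against 33.4% of all genes. The groups did not overlap in 29.2%, against 37.7% of all genes. The median log2 change of these genes was 0.16, beside 0.06 over all genes. Pold4, the smallest subunit of polymerase delta, had signals of 164, 153 and 208 in R271W cells against 100.1, 111 and 114 in controls (log2 change 0.68, adjusted p = 0.00556). Pold4 was thus higher without overlap, in the enzyme whose subunit gene Pold2 was lower. Rnaseh2c, a subunit of ribonuclease H2, which removes ribonucleotides from DNA, averaged 135 ± 13.4 in R271W cells and 89.9 ± 18.2 in controls (log2 change 0.60, adjusted p = 0.0248). Rbl1, which encodes the pocket protein p107, a partner of repressive E2F factors, averaged 101 ± 11.7 in R271W cells and 66.2 ± 8.11 in controls (log2 change 0.62, adjusted p = 0.0261). Usp1, which encodes a deubiquitinase of PCNA, averaged 239.6 in R271W cells and 313 in controls (log2 change -0.39, adjusted p = 0.0206). All 3 were without overlap between the groups (± SD, n = 3 each). Under median centring 1 of these genes was higher and 10 were lower.

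Genes of the second part of the cycle were read beside them. Of 14 measured genes of G2 and mitosis 2 were higher, Top2a (0.37, adjusted p = 0.0137) and Aurka (0.40, adjusted p = 0.042), and 0 were lower, which is 14.3%, near the 18.9% of all genes. Their median log2 change was 0.18, beside 0.06 over all genes. Of the 14, 11 read above 0 and 3 below, Mki67 and Cdk1 among the latter, beside 5687 and 4456 over all genes. The R271W arrays were all above the controls in 5 and all below them in 0. That is 35.7%, against 37.7% of all genes (21.2% above and 16.6% below). The genes of this group are named here after their values were seen. Mki67, the usual marker of cycling cells, averaged 494 ± 41.8 in R271W cells and 513 ± 58.7 in controls, with overlap (log2 change -0.05, adjusted p = 0.79). Cdk1, the mitotic kinase, averaged 442 ± 12.8 in R271W cells and 467 ± 28.9 in controls, also with overlap (log2 change -0.08, adjusted p = 0.591).

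The calls differed in how far they held under other processing. Prim2 and Slbp each passed under 16 of 17 alternatives, the exception being the variance model without the intensity trend (adjusted p = 0.0729 and 0.0533). Ccne2 passed under 15, the exceptions being that model (0.0547) and the mean over its probe sets. Mcm6 and Pold2 each passed under 12, Mcm4 under 9 and Rfc3 under 7. Every called member kept its sign under all 17 alternatives.

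**Figure D5:**
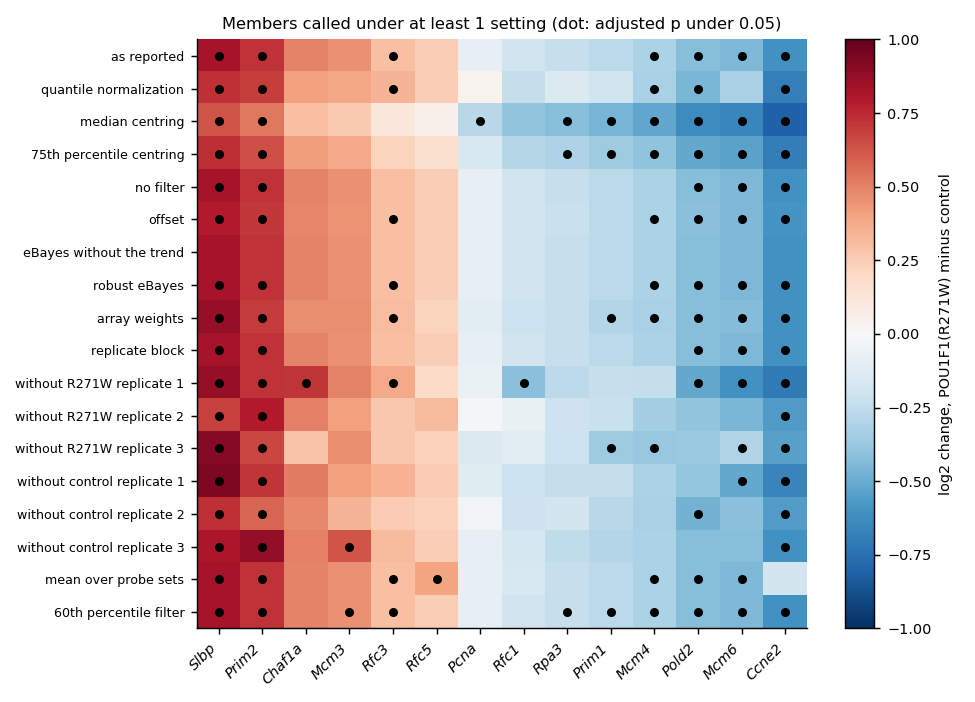
Log2 change (colour) of the 14 members that passed as reported or under at least 1 alternative, by processing alternative (rows); a dot marks an adjusted p under 0.05. Slbp and Prim2 carry dots in all rows except the variance model without the trend, and median centring adds Pcna, Rpa3 and Prim1 on the lower side.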

How the data were processed

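Biotinylated cRNA of 6 GH4C1 cultures was read on Affymetrix rat arrays, per the labels' protocols. The authors deposited 1 linear intensity per probe set, computed with MAS5 according to the submitters' processing notes, of which no version or setting is given in the sources used here. The mean of each array was 100 once 2% of values were trimmed at each end, so the arrays were already scaled, which fixes the level against which changes are read.

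Groups came from the sample labels. Gene symbols were those of the platform's annotation, brought up to date by Entrez ID with RefSeq's GRCr8 gene table. Among 31042 probe sets other than controls, 20826 carried 1 symbol, 436 carried more and 9780 had no annotation here. The members and lists were chosen with earlier results of these data known.

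Log2 signals, not scaled again, went into limma 3.58.1 under R 4.3.3 (lmFit, eBayes with an intensity trend, two-sided), with Benjamini-Hochberg adjustment over 18625 probe sets whose mean log2 signal reached the 40th percentile (a signal of 11.2) and a threshold of 0.05. Only 3 arrays a group limit the precision. Within groups, log2 signals had a median SD of 0.11 for the 15 members with signals of at least 200 and 0.25 for the other 28. The procedure was tested on simulated data with independent noise and 200 changed probe sets. The simulation held no array difference between the groups, so it does not test the calls reported here. All members were named by role, and of the other replication genes those that passed. The alternatives covered scaling (quantile, median or 75th percentile), the filter (none, or the 60th percentile), an offset of 3.72 (the 20th percentile of signals), the variance model (no trend, robust, array weights), a replicate block, the mean over probe sets and leaving out each array. Figures used matplotlib 3.10.9 in Python 3.11.15.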

Additional observations from a re-analysis of the deposited data

How the results depend on the processing

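With the settings reported, 3 members were higher, 4 were lower and their median log2 change was -0.02, while 3 other replication genes were higher and 1 was lower. The median of the members was -0.069 under quantile normalization, -0.22 under median centring and -0.10 under 75th percentile centring, against -0.0011, -0.13 and -0.014 over all probe sets and 0.069 as deposited. Median centring gave 7 members lower, and 1 other replication gene higher and 10 lower. Quantile normalization gave 1 other replication gene higher, 75th percentile centring gave 4 lower, the 60th percentile filter 2 lower and the mean over probe sets 0 lower. Without the intensity trend 0 members and 0 other replication genes were higher or lower (8 and 10 at an unadjusted p under 0.05), with 1065 probe sets called over all instead of 2940. Leaving out each array in turn gave 2 to 4 members higher and 1 to 4 lower, a median of -0.0021 to 0.054, and 1 to 2 other replication genes higher and 0 to 3 lower, with fewer arrays in each fit. The remaining alternatives kept these counts within 1.5 times. The cause of these shifts was not tested beyond what each alternative changes. A replicate block gave 2 members higher and 3 lower, ending the calls of Mcm4 (adjusted p = 0.0694) and Rfc3 (0.084), and 2479 calls over all. Same-numbered arrays did not deviate together (correlations of -0.02 to 0.01), so the numbers were not used as pairs. Members that did not pass changed sign in up to 8 cases under a given alternative, most often under median centring. Calls over all probe sets split into 1596 higher and 1344 lower as reported, 730 and 3132 under median centring and 1124 and 1923 under 75th percentile centring. Orc1, Ccne1, Pola2, Pole and Gins1, the dimmest members, fell below the 60th percentile filter.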
